A study of Homo sapiens with 6 samples.

Results

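The 40 genes described here encode proteins of the human centromere and kinetochore and of the checkpoint that watches over spindle attachment. They were chosen by name, with earlier results of these data known, from the 60409 rows of the deposited count tables. Each of the 40 names occurred once, and all 40 were among the 18583 genes that passed the filter on low counts. ACHN, the cell line used, derives from a human renal carcinoma and is widely established, and the cells were taken 48 h after siRNA transfection. The control group NC was given a negative control siRNA. The groups siMEX3A_1 and siMEX3A_2 were given separate siRNAs that target MEX3A, the gene of a KH-domain protein that binds RNA, and their sequences are not reported here. There were 2 libraries per group and 6 in all, from 1 cell line, and nothing in the labels ties the libraries to separate cultures. The series title names the G1/S transition and the RB/E2F pathway, and the comparison made here asks how the transcripts of the chromosome segregation machinery stood after each siRNA.

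A kinetochore is built on chromatin that carries CENP-A, a histone H3 variant that marks the centromere. The constitutive centromere-associated network sits on this chromatin through the cell cycle, and the MIS12 and NDC80 complexes, with KNL1, extend from it to bind spindle microtubules. Kinetochores without a proper attachment recruit the checkpoint proteins, which hold back CDC20, the activator of the anaphase-promoting complex, until every chromosome is attached. The chromosomal passenger complex, with the kinase Aurora B, releases faulty attachments. Many of these genes are transcribed mostly in G2 and M phase, so their transcripts are low in cells outside the cycle.

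One promoter element that such genes are known for is the cell cycle homology region, with the core letters TTTGAA, which is bound by the MuvB complexes that repress or activate late cell cycle genes. It often lies near CCAAT boxes, which bind the factor NF-Y. RefSeq promoter windows (GRCh38.p14, 250 bases before to 50 bases after the gene start) were at hand for 33 of the 40 genes. The files themselves carry no coordinates and the submitters' processing notes list GRCh37, so no position was carried between builds. The 120 bases before the start follow for the 7 genes with a whole TTTGAA in that stretch and for SKA2, the gene with the largest rise. Each reads 5′ to 3′ on the gene's own strand, and the capitals mark TTTGAA and CCAAT or their reverse complements TTCAAA and ATTGG. The stretches are chr1:37692396-37692515 (plus strand) for CDCA8, chr1:43358861-43358980 (plus) for CDC20, chr2:26785936-26786055 (plus) for CENPA, chr2:233854536-233854655 (minus) for HJURP, chr10:56361260-56361379 (minus) for ZWINT, chr11:62123891-62124010 (plus) for INCENP, chr15:40160949-40161068 (plus) for BUB1B and chr17:59155187-59155306 (minus) for SKA2.
CDCA8: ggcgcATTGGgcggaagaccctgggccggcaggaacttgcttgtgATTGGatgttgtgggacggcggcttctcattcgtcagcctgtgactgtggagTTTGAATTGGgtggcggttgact
CDC20: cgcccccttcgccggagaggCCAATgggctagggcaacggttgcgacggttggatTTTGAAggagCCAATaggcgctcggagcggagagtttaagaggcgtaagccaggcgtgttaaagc
CENPA: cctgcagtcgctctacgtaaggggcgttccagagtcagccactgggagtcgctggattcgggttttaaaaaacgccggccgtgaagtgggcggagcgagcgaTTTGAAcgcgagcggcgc
HJURP: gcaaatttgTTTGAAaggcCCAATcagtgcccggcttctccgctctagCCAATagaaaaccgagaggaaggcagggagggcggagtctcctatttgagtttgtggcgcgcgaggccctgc
ZWINT: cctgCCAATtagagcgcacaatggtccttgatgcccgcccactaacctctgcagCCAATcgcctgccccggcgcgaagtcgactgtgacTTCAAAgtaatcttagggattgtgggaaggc
INCENP: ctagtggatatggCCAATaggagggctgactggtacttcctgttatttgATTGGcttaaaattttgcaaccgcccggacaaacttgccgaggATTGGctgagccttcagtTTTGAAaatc
BUB1B: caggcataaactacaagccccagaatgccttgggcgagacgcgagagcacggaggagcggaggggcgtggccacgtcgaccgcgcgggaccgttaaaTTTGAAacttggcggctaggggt
SKA2: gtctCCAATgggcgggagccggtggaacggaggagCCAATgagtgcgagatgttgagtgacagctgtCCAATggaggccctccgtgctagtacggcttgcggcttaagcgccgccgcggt

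Over whole windows and both strands, TTTGAA was found in 16 of the 33 genes (48.5%), and in 13.9% of the 11344 tested genes with a window and 18.2% of all 27305 genes with one. CCAAT was found in 23 of the 33 (69.7%) and in 42.6% of tested genes. In CDCA8 1 of these matches shares its last letter with a CCAAT match. The related TTTAAA was found in 3 of the 33 genes (9.09%, against 11.4% of tested genes), and GGCGGGA, part of an E2F-type site, in 12 (36.4%, against 29.1%). A gene with several windows was counted once, and a match is a run of letters, not a shown binding site. The SKA2 stretch above has 3 CCAAT matches and no TTTGAA.

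The libraries were even in depth, with totals from 18825750 to 19158723 counts. MEX3A itself stood at 93.3 and 106 normalized counts in NC, 56.6 and 65.3 with siMEX3A_1 and 73.0 and 76.1 with siMEX3A_2. A normalized count is the count scaled to a library of mean size after TMM normalization. Its fall with siMEX3A_1 passed the edgeR test (log2 fold change -0.71, adjusted p = 0.00655) but not DESeq2 (adjusted p = 0.0593), and with siMEX3A_2 it did not pass (-0.42, edgeR adjusted p = 0.0644). Of the 10 renal epithelial markers looked up, PAX8 stood at 10403 to 16523 counts and KRT8 at 11441 to 27386. The list was not uniformly high, with CDH16 at 46 to 286 counts and CDH6 at only 0 to 13. PTPRC and CD3E, which define leukocytes, had at most 2 counts in any library, and CDH5 and KDR, which define endothelial cells, at most 1. In the same lists CD14 stood at 0 to 14 counts, TIE1 at 0 to 13 and VWF at 0 to 7. Of the 4 endothelial markers analysed 0 passed the filter. Of the 5 leukocyte markers looked up only CD68, which is not confined to leukocytes, passed the filter, at 296 to 607 counts, and of the 5 fibroblast markers 3 passed. COL1A1 stood at 659 to 1299 counts and was called lower with siMEX3A_1 (log2 -0.81, edgeR adjusted p = 2.96e-05), PDGFRB stood at 150 to 218 and COL3A1 at 9 to 21. Of the 10 renal markers 4 fell and 3 rose with siMEX3A_1 (median -0.13), and 6 fell and 2 rose with siMEX3A_2 (median -0.56). Among all tested genes edgeR called 25.9% lower and 27.0% higher with siMEX3A_1, and 25.7% and 25.2% with siMEX3A_2. The numbers of renal markers that rose were near these shares.

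Nearly all of the 40 genes fell with siMEX3A_1. By edgeR's quasi-likelihood test at a Benjamini-Hochberg adjusted p under 0.05 over all tested genes, 38 of the 40 genes fell, 0 rose and 2 did not pass. Among all 18583 genes 25.9% were called lower and 27.0% higher. The median log2 fold change of the 40 genes was -1.48, or 35.8% of NC, beside -0.01 over all genes. A fall of at least 2-fold was called for 32 of them, where the share over all genes was 9.80%, and 15 of them fell at least 4-fold, where that share was 2.87%. In 38 of the 40 both siMEX3A_1 libraries lay below both NC libraries, which held for 37.1% of all genes.

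With siMEX3A_2 the same genes moved less and were divided. Of the 40, 22 fell, 3 rose and 15 did not pass, beside 25.7% of all genes called lower and 25.2% higher. The median was -0.27, or 82.7% of NC, beside -0.0023 over all genes. A fall of at least 2-fold was called for 2 of them, CENPH and CDC20, where the share over all genes was 7.53%. Both siMEX3A_2 libraries lay below both NC libraries for 29 of the 40, beside 37.5% of all genes. Both comparisons use the same 2 NC libraries. In the authors' deposited table, with adjusted p under 0.05, 38 of the 40 were lower and 0 higher for siMEX3A_1, beside 18.2% and 19.1% of all genes with an adjusted p there. For siMEX3A_2 the authors' deposited table has 16 of the 40 lower and 2 higher, beside 19.8% and 19.6%.

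Compared directly, 33 of the 40 were lower with siMEX3A_1 than with siMEX3A_2, 0 were higher and 7 did not pass, beside 25.5% of all genes called lower and 26.0% higher. The median difference was -1.36 on the log2 scale, and 26 genes were at least 2-fold lower, which held for 8.22% of all genes. Both siMEX3A_1 libraries lay below both siMEX3A_2 libraries for 37 of the 40, and for 37.4% of all genes. Summed over the 40 genes, the siMEX3A_1 libraries held 36.8% and 37.3% of the NC mean and the siMEX3A_2 libraries 88.1% and 87.5%.

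**Figure D1:**
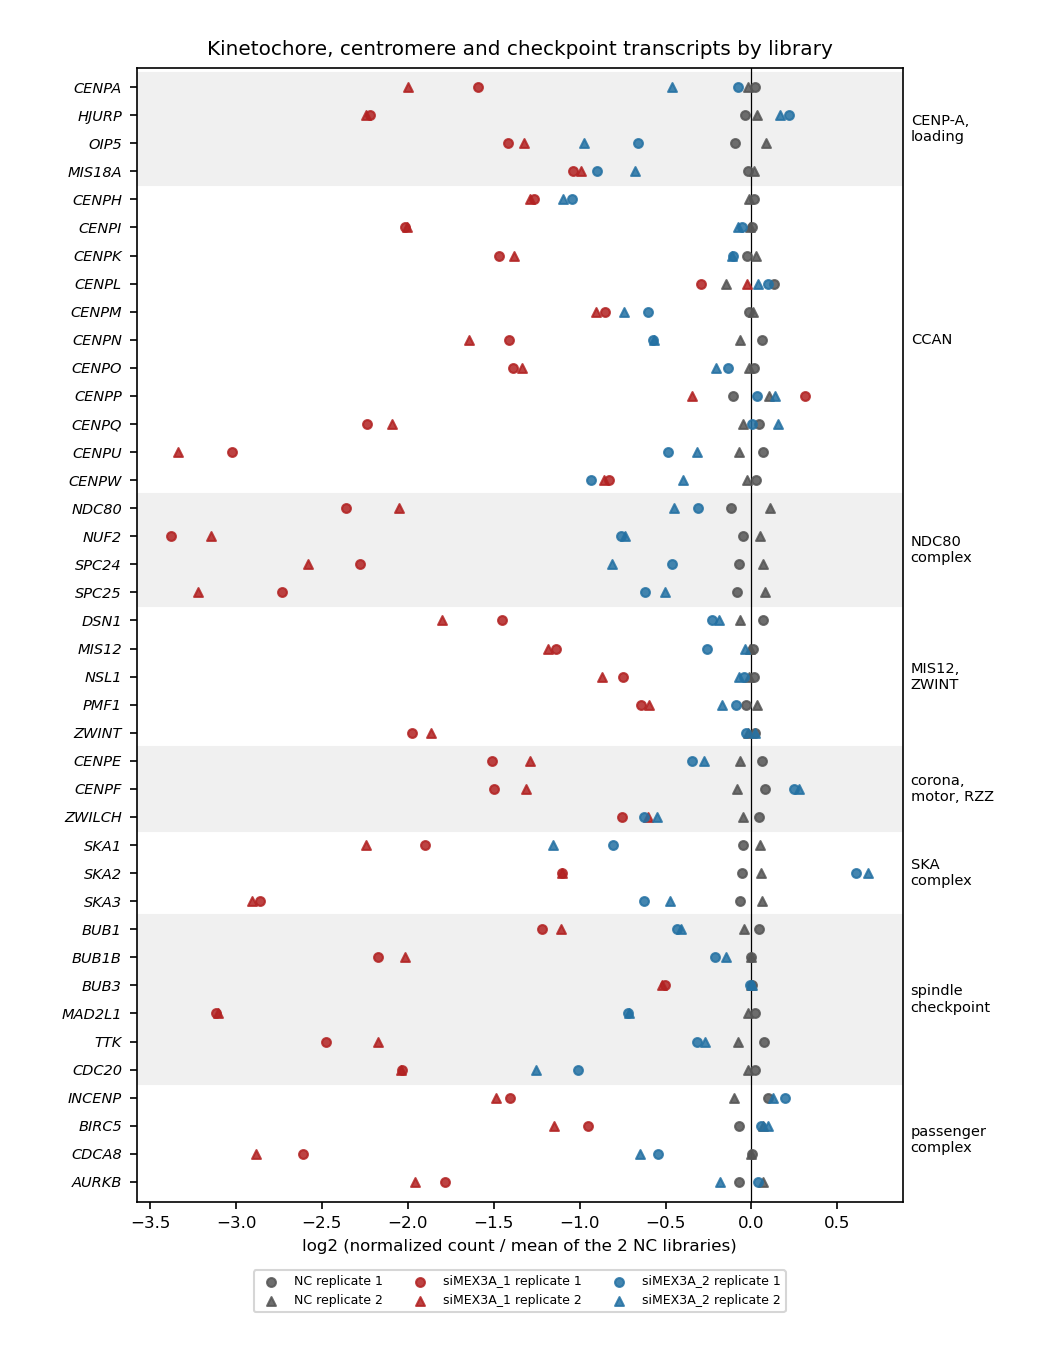
Level of each of the 40 genes in each library, as log2 of the normalized count over the mean of the 2 NC libraries (x axis), with genes grouped by role (y axis; CCAN is the constitutive centromere-associated network); circles are replicate 1 and triangles replicate 2. The siMEX3A_1 points lie left of both NC points for 38 genes, with CENPL and CENPP the exceptions, and SKA2 is the gene whose siMEX3A_2 points lie farthest right.

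CENP-A and the proteins that load it all fell with siMEX3A_1 and were divided with siMEX3A_2. HJURP, the chaperone that deposits CENP-A at centromeres, had 1653 and 1733 normalized counts in NC, 364 and 357 with siMEX3A_1 and 1967 and 1900 with siMEX3A_2. The 3 groups did not overlap, with siMEX3A_1 lowest and siMEX3A_2 highest. Its fall with siMEX3A_1 was 4.69-fold (log2 -2.23, SE 0.07, edgeR adjusted p = 1.79e-08), and its rise with siMEX3A_2 was 1.14-fold (0.19, SE 0.06, edgeR adjusted p = 0.0245). That small rise did not pass without NC replicate 1, siMEX3A_2 replicate 1 or siMEX3A_2 replicate 2 (edgeR adjusted p = 0.138, 0.146 and 0.0582) or with DESeq2 (adjusted p = 0.0610). CENPA, the histone variant itself, had 332 and 322 in NC, 108 and 81.6 with siMEX3A_1 and 310.1 and 237 with siMEX3A_2. It fell 3.44-fold with siMEX3A_1 and did not pass with siMEX3A_2 (log2 -0.26, SE 0.14, edgeR adjusted p = 0.170).

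OIP5 and MIS18A encode partners in the Mis18 complex, which prepares centromeres for CENP-A loading. Both fell with each siRNA. OIP5 had 129 and 146 normalized counts in NC, 51.6 and 55.1 with siMEX3A_1 and 87.0 and 70.1 with siMEX3A_2, in 3 groups that did not overlap. Its log2 fold changes were -1.37 and -0.81 (SE 0.18 and 0.17). MIS18A fell by 1.02 and 0.78 on the log2 scale, and the siRNAs did not differ detectably (difference -0.23, SE 0.11, edgeR adjusted p = 0.106). For OIP5 the difference of -0.56 was called (edgeR adjusted p = 0.0324), but not without siMEX3A_1 replicate 1, siMEX3A_1 replicate 2 or siMEX3A_2 replicate 1 (edgeR adjusted p = 0.118, 0.0641 and 0.188).

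Of the 11 genes of the constitutive centromere-associated network, 9 fell with siMEX3A_1, and with siMEX3A_2 6 fell and 5 did not pass. The shares of all genes called lower were 25.9% with siMEX3A_1 and 25.7% with siMEX3A_2. The network is made of smaller assemblies, and their subunits did not move by the same amount. CENPU belongs to the group that includes CENP-O, -P, -Q and -U. It had 465 and 422 normalized counts in NC, 54.6 and 43.9 with siMEX3A_1 and 317 and 356 with siMEX3A_2. This 8.98-fold fall was the largest in the network. CENPQ of the same group had 212 and 198 in NC, 43.5 and 48.0 with siMEX3A_1 and 205 and 228 with siMEX3A_2. Here the siMEX3A_2 libraries overlapped NC (log2 0.08, SE 0.12, edgeR adjusted p = 0.600), and the fall with siMEX3A_1 was 4.47-fold. CENPO fell by 1.36 with siMEX3A_1 and by 0.17 with siMEX3A_2.

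CENPP, also of that group, showed no detectable change. It had 73.5 and 84.8 normalized counts in NC, 98.1 and 62.2 with siMEX3A_1 and 81.0 and 87.1 with siMEX3A_2, so the groups overlapped and neither comparison passed. Its exons overlap those of NOL8 and IPPK on the opposite strand in GENCODE v29, and as no source used here gives the strand setting of the counts, reads of such pairs cannot be told apart. The calls with siMEX3A_2 for CENPU (log2 -0.40) and CENPO ended when single libraries were left out. CENPU did not pass without NC replicate 1 or siMEX3A_2 replicate 1 (edgeR adjusted p = 0.0756 and 0.0962), and CENPO without NC replicate 1, NC replicate 2, siMEX3A_1 replicate 2, siMEX3A_2 replicate 1 or siMEX3A_2 replicate 2 (edgeR adjusted p = 0.156, 0.0979, 0.0589, 0.0860 and 0.272). With DESeq2 neither passed (adjusted p = 0.0604 and 0.192).

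CENP-H, -I, -K and -M form another assembly of the network, and its genes were divided with siMEX3A_2. CENPH had 418 and 409 normalized counts in NC, 172 and 169 with siMEX3A_1 and 200.1 and 193 with siMEX3A_2. Both siRNA groups lay far below NC, with log2 fold changes of -1.28 and -1.07 (SE 0.09 each). CENPI had 209.5 and 208 in NC, 51.6 and 52.0 with siMEX3A_1 and 201 and 197 with siMEX3A_2. It fell 4.02-fold with siMEX3A_1, and with siMEX3A_2 its log2 fold change was -0.07 (SE 0.11, edgeR adjusted p = 0.647). CENPK followed CENPI (-1.43, and -0.11 with edgeR adjusted p = 0.202), and CENPM followed CENPH (-0.88 and -0.67, both called). In the direct comparison CENPI and CENPK differed by -1.94 and -1.32, while CENPH and CENPM did not differ detectably (-0.20 with SE 0.10 and -0.21 with SE 0.11, edgeR adjusted p = 0.108 and 0.151).

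CENPN, whose product reads the CENP-A nucleosome, fell by 1.52 and 0.57 on the log2 scale. Its partner CENPL did not pass with either siRNA, with 232 and 191 normalized counts in NC, 173 and 208 with siMEX3A_1 and 226 and 217 with siMEX3A_2. CENPN overlaps CMC2 on the opposite strand. CENPW, a histone-fold protein that pairs with CENP-T, had 126 and 122 in NC, 69.8 and 68.4 with siMEX3A_1 and 65.0 and 94.1 with siMEX3A_2. It fell by 0.84 and 0.64, the latter not without NC replicate 1, NC replicate 2 or siMEX3A_2 replicate 1 (edgeR adjusted p = 0.0772, 0.0599 and 0.123) or with DESeq2 (adjusted p = 0.0880). CENPT, named here after its own values were seen, rose by 0.85 and 0.60 (edgeR adjusted p = 1.72e-05 and 0.000245). CENPT shares exon sequence with NUTF2 and THAP11 on the opposite strand.

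The NDC80 complex, the main microtubule grip of the kinetochore, fell in all 4 subunits with both siRNAs, beside 25.9% and 25.7% of all genes. Its summed level was 13.8% and 14.0% of the NC mean with siMEX3A_1 and 65.6% and 64.0% with siMEX3A_2. NUF2 had 943 and 1010 normalized counts in NC, 94.0 and 110.2 with siMEX3A_1 and 578 and 587 with siMEX3A_2. The groups did not overlap, and its fall with siMEX3A_1 (9.56-fold, log2 -3.26, SE 0.09, edgeR adjusted p = 1.17e-08) was the largest of the 40 genes. SPC25 had 368 and 412 in NC, 58.7 and 41.8 with siMEX3A_1 and 254 and 275 with siMEX3A_2. The log2 fold changes of NUF2, SPC25, SPC24 and NDC80 were -3.26, -2.95, -2.42 and -2.20 with siMEX3A_1 and -0.75, -0.56, -0.63 and -0.38 with siMEX3A_2. For NDC80 the latter call ended without NC replicate 2, siMEX3A_2 replicate 1 or siMEX3A_2 replicate 2 (edgeR adjusted p = 0.203, 0.0656 and 0.201) and with DESeq2 (adjusted p = 0.137). For SPC24 it ended without siMEX3A_2 replicate 2 (edgeR adjusted p = 0.0658).

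The MIS12 complex, which links the inner kinetochore to NDC80, and ZWINT, a binding partner of KNL1, fell with siMEX3A_1 in 5 of 5 genes. With siMEX3A_2 0 of 5 passed. Of all genes 25.9% were called lower with siMEX3A_1, and 25.7% lower and 25.2% higher with siMEX3A_2. ZWINT had 1169 and 1136 normalized counts in NC, 293 and 316 with siMEX3A_1 and 1127 and 1167 with siMEX3A_2. The siMEX3A_1 libraries lay far below the others (3.78-fold lower than NC, log2 -1.92, SE 0.07), and the siMEX3A_2 libraries overlapped NC (log2 -0.0068, SE 0.06, edgeR adjusted p = 0.936). The MIS12 complex subunits DSN1, MIS12, NSL1 and PMF1 fell (log2 -1.61, -1.16, -0.81 and -0.62) with siMEX3A_1 and stood between -0.21 and -0.06 with siMEX3A_2. PMF1 shares exons with the readthrough gene PMF1-BGLAP, which stood at 25.0 to 75.1 normalized counts, and how reads of the shared exons were divided between them was not tested. At an unadjusted p under 0.05 by edgeR 0 of the 5 genes passed with siMEX3A_2.

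CENPE, a kinesin motor of the fibrous corona, and CENPF, a large corona protein, gave different results with siMEX3A_2. CENPF had 4165 and 3711 normalized counts in NC, 1396 and 1587 with siMEX3A_1 and 4682 and 4780 with siMEX3A_2. The 3 groups did not overlap, with a fall of 1.40 with siMEX3A_1 and a rise of 0.26 with siMEX3A_2 (SE 0.08 each, edgeR adjusted p = 4.55e-07 and 0.0148). CENPE had 815 and 745 in NC, 274 and 319 with siMEX3A_1 and 614 and 645 with siMEX3A_2, which are falls of 1.39 and 0.31. Without NC replicate 2, siMEX3A_2 replicate 1 or siMEX3A_2 replicate 2 the rise of CENPF did not pass (edgeR adjusted p = 0.142, 0.0675 and 0.0892). The fall of CENPE with siMEX3A_2 did not pass without NC replicate 1, siMEX3A_2 replicate 1 or siMEX3A_2 replicate 2 (edgeR adjusted p = 0.0904, 0.0979 and 0.0528).

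ZWILCH belongs to the complex with ZW10 and ROD (KNTC1) that brings dynein and checkpoint proteins to kinetochores. ZWILCH had 1054 and 986 normalized counts in NC, 605 and 672 with siMEX3A_1 and 660.2 and 698 with siMEX3A_2, and fell by 0.68 and 0.59 (SE 0.07 each). Its siRNA groups overlapped and did not differ detectably (-0.09, SE 0.08, edgeR adjusted p = 0.364). KNTC1 fell by 1.69 and 0.31, the latter not without NC replicate 1 or siMEX3A_2 replicate 2 (edgeR adjusted p = 0.0872 and 0.115). ZW10, in contrast, had 141 and 124 in NC, 359 and 343 with siMEX3A_1 and 392 and 399 with siMEX3A_2. It rose by 1.41 and 1.58 (SE 0.10 each, edgeR adjusted p = 2.11e-06 and 1.71e-06), so 2 genes of this complex fell and the third partner rose. ZWILCH overlaps RPL4, an abundant ribosomal protein transcript, on the opposite strand, and its own level is uncertain for that reason.

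The SKA complex couples kinetochores to shrinking microtubules, and its 3 genes came apart with siMEX3A_2. SKA2 had 1019 and 1100 normalized counts in NC, 492 and 494 with siMEX3A_1 and 1618 and 1697 with siMEX3A_2. The 3 groups were far apart. The fall with siMEX3A_1 was 2.15-fold (log2 -1.10, SE 0.07, edgeR adjusted p = 1.1e-06) and the rise with siMEX3A_2 1.56-fold (0.65, SE 0.07, edgeR adjusted p = 3.14e-05). SKA1 had 387 and 415 in NC, 107 and 84.7 with siMEX3A_1 and 229 and 180.2 with siMEX3A_2, falls of 2.06 and 0.97. SKA3 had 548 and 599.8 in NC, 78.9 and 76.5 with siMEX3A_1 and 372 and 413 with siMEX3A_2, falls of 2.88 and 0.55. The SKA2 rise passed in all 13 alternative settings.

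PRR11, which starts beside SKA2 on the other strand, was looked up after the values of SKA2 were seen. It had 1649 and 1400 normalized counts in NC, 508 and 623 with siMEX3A_1 and 1901 and 1834 with siMEX3A_2. Its fall of 1.43 with siMEX3A_1 was called (edgeR adjusted p = 3.23e-06). Its rise of 0.29 with siMEX3A_2 (edgeR adjusted p = 0.0347) was not called without NC replicate 2, siMEX3A_2 replicate 1 or siMEX3A_2 replicate 2 (edgeR adjusted p = 0.253, 0.170 and 0.0960).

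**Figure D2:**
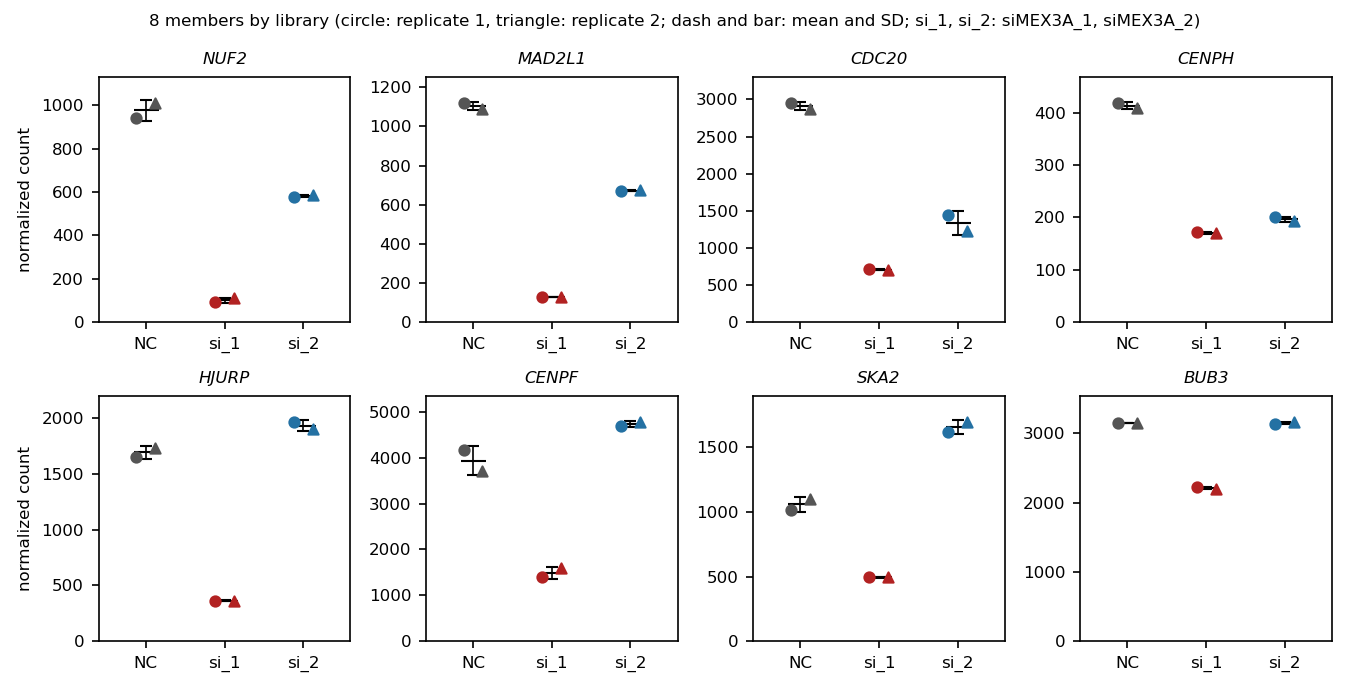
Normalized counts (y axes, from 0) of 8 genes in NC, siMEX3A_1 and siMEX3A_2 libraries (x axes); circles are replicate 1, triangles replicate 2, and dashes with bars the mean and SD of 2 libraries. NUF2, MAD2L1 and CDC20 step down from NC to siMEX3A_2 to siMEX3A_1, CENPH is low with both siRNAs, HJURP, CENPF and SKA2 are lowest with siMEX3A_1 and highest with siMEX3A_2, and BUB3 is lower with siMEX3A_1.

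The 6 checkpoint genes all fell with siMEX3A_1, and 5 fell with siMEX3A_2, beside 25.9% and 25.7% of all genes called lower. MAD2L1 encodes MAD2, which binds CDC20 in the inhibitory complex. It had 1119 and 1089 normalized counts in NC, 127 and 129 with siMEX3A_1 and 670.2 and 675 with siMEX3A_2, and fell 1.64-fold with siMEX3A_2 (log2 -0.72, SE 0.06, edgeR adjusted p = 8.6e-06). CDC20, the target of the checkpoint, had 2950 and 2876 in NC, 711 and 709 with siMEX3A_1 and 1447 and 1222 with siMEX3A_2. Its falls were 4.10-fold and 2.18-fold, and the latter was the largest of the 40 genes with siMEX3A_2 (log2 -1.13, SE 0.08). BUB3, an adaptor that also binds checkpoint kinases outside mitosis, had 3154 and 3150 in NC, 2223 and 2198 with siMEX3A_1 and 3136 and 3164 with siMEX3A_2. It gave the smallest called fall with siMEX3A_1 (1.43-fold, log2 -0.51, SE 0.05), and with siMEX3A_2 it stood at -0.00097 (SE 0.05, edgeR adjusted p = 0.988).

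BUB1, BUB1B and TTK encode the checkpoint kinases BUB1, BUBR1 and MPS1, of which BUBR1 is a kinase-like inhibitor of CDC20. TTK had 794 and 716 normalized counts in NC, 136 and 167 with siMEX3A_1 and 607 and 626 with siMEX3A_2. The 3 genes had log2 fold changes of -1.16, -2.09 and -2.32 with siMEX3A_1 and -0.42, -0.18 and -0.29 with siMEX3A_2, all called lower. Only the BUB1 call among the latter held in each of the 13 alternatives. For BUB1B it ended without NC replicate 1, NC replicate 2, siMEX3A_2 replicate 1 or siMEX3A_2 replicate 2 (edgeR adjusted p = 0.140, 0.132, 0.245 and 0.125) and for TTK without NC replicate 1, siMEX3A_2 replicate 1 or siMEX3A_2 replicate 2 (edgeR adjusted p = 0.144, 0.127 and 0.0909). With DESeq2 both missed the threshold (adjusted p = 0.200 and 0.0822).

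The chromosomal passenger complex fell in 4 of 4 genes with siMEX3A_1 and in 1 of 4 with siMEX3A_2. Among all genes 25.9% and 25.7% were called lower, so the 1 of 4 with siMEX3A_2 is near the share over all genes. CDCA8, which encodes the subunit borealin, had 861 and 855 normalized counts in NC, 141 and 116 with siMEX3A_1 and 589 and 547 with siMEX3A_2. It was the member that fell with both, with log2 fold changes of -2.74 and -0.60 (SE 0.10 and 0.08). AURKB, the kinase of the complex, had 1326 and 1463 in NC, 405 and 359 with siMEX3A_1 and 1429 and 1230 with siMEX3A_2. Its siMEX3A_2 libraries lay on either side of NC replicate 1 (log2 -0.07, SE 0.09, edgeR adjusted p = 0.562). INCENP, the scaffold, and BIRC5, which encodes survivin, fell by 1.44 and 1.04 with siMEX3A_1 and stood at 0.16 and 0.08 with siMEX3A_2 (edgeR adjusted p = 0.128 and 0.455). Without NC replicate 1 INCENP was called higher with siMEX3A_2 (0.27, edgeR adjusted p = 0.0387).

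**Figure D3:**
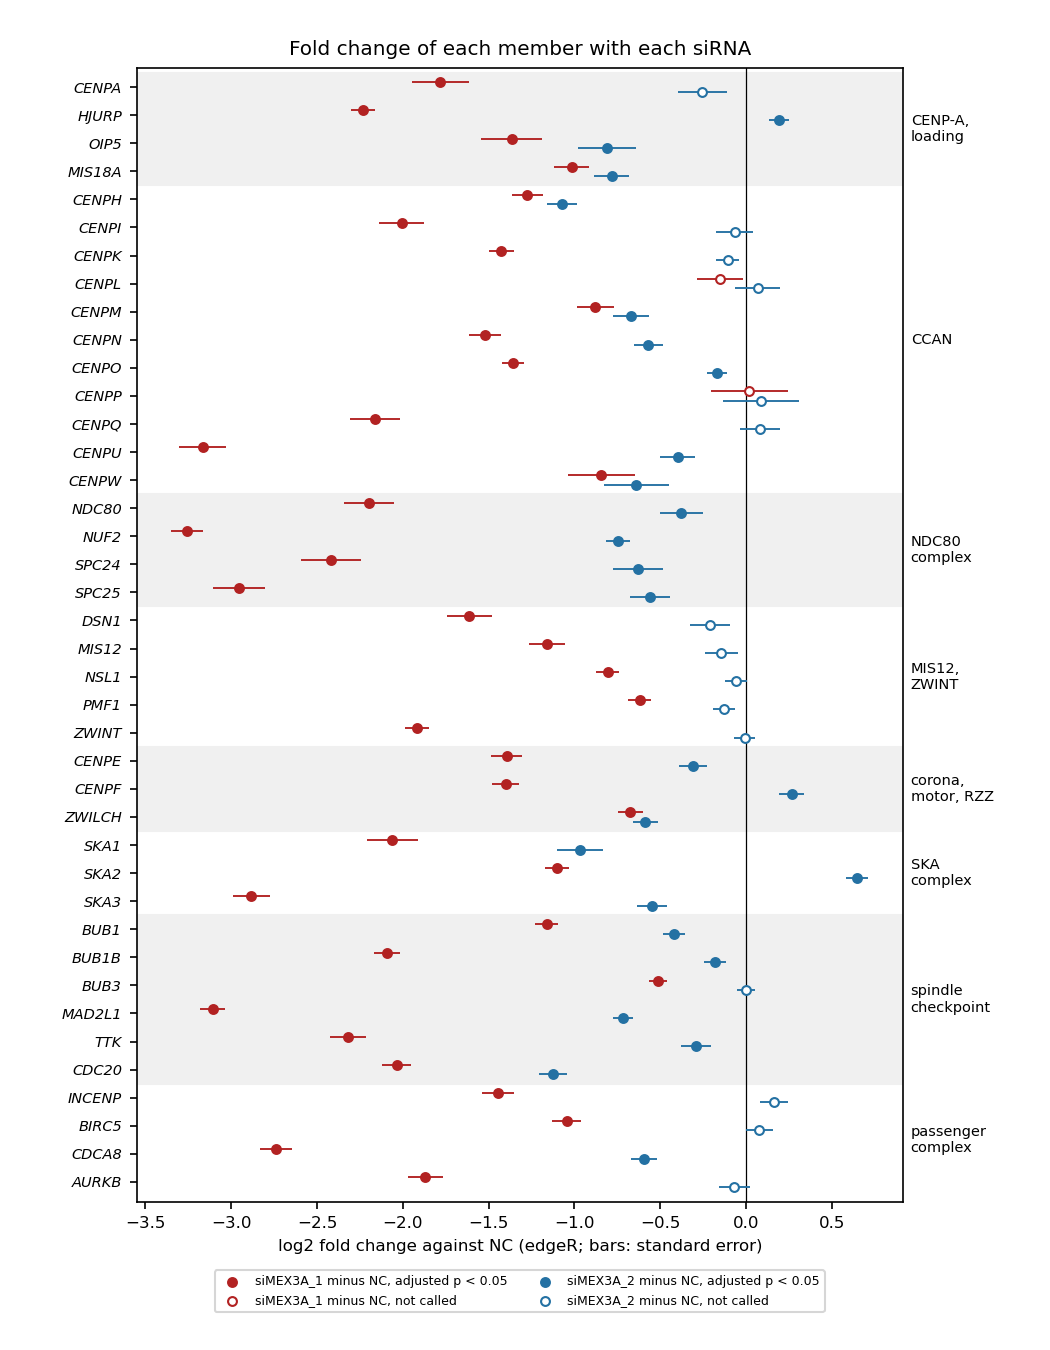
Log2 fold change against NC of each of the 40 genes by edgeR (x axis), for siMEX3A_1 (red) and siMEX3A_2 (blue), with genes grouped by role (y axis); bars are standard errors and filled points passed an adjusted p under 0.05. The siMEX3A_1 values run from -3.26 to 0.02 and the siMEX3A_2 values from -1.13 to 0.65, and the MIS12 complex has filled points with siMEX3A_1 and open ones with siMEX3A_2.

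The size of the direct difference between the siRNAs varied widely among the 40 genes. CENPU differed most, by -2.77 (SE 0.14, 6.81-fold lower with siMEX3A_1), followed by NUF2 (-2.51), HJURP (-2.42), SPC25 (-2.39) and MAD2L1 (-2.39). At the other end the 7 genes that did not pass were MIS18A, CENPH, CENPL, CENPM, CENPP, CENPW and ZWILCH, with differences from -0.23 to -0.07 and SEs from 0.08 to 0.22. Of these, CENPL and CENPP did not pass against NC either. MIS18A, CENPH, CENPM, CENPW and ZWILCH were called lower with each siRNA, and a difference that misses the threshold does not show that they fell equally. HJURP, CENPF and SKA2, which were called in opposite directions against NC, differed directly by -2.42, -1.66 and -1.75 (edgeR adjusted p = 1.69e-08, 1.91e-07 and 7.75e-08).

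**Figure D4:**
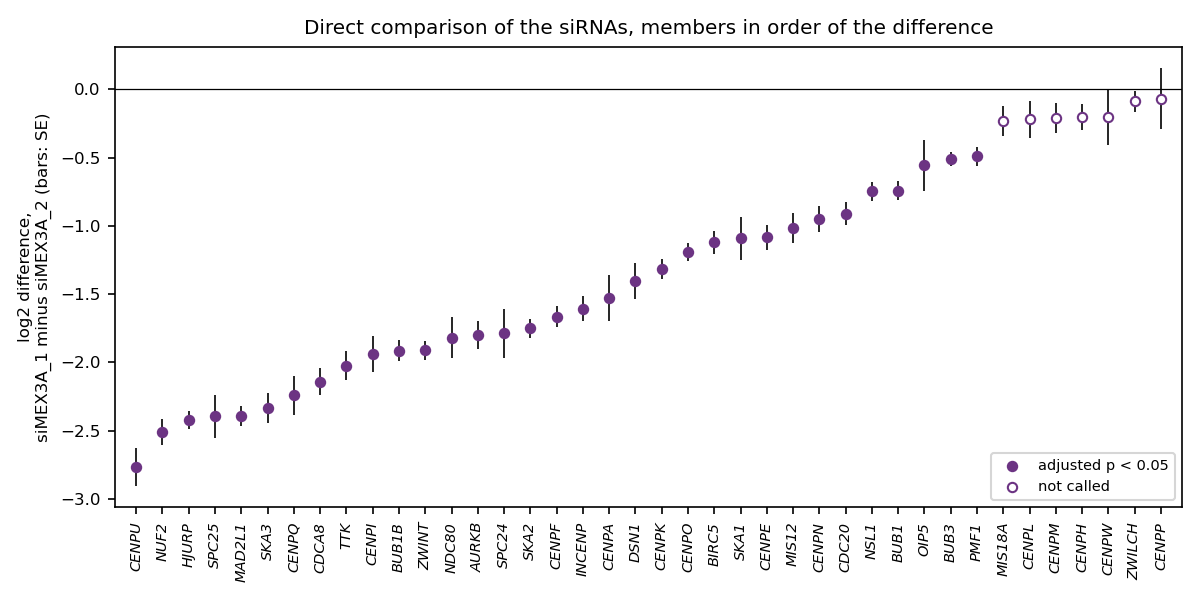
Log2 difference between siMEX3A_1 and siMEX3A_2 by edgeR (y axis) for the 40 genes in order of that difference (x axis); bars are standard errors, and filled points passed an adjusted p under 0.05. All 40 values lie below 0, from -2.77 for CENPU to -0.07 for CENPP, and the 7 open points lie at the right.

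Among the 33 genes, those with TTTGAA in the promoter window had lower medians than those without, as a description with no test. With siMEX3A_1 the median log2 fold change was -2.08 over the 16 genes with it and -1.37 over the 17 without. The medians over tested genes were -0.06 with it and 0.02 without. With siMEX3A_2 the medians over these 33 genes were -0.46 and -0.14, beside 0.04 and -0.02 over tested genes. For CCAAT the order was the reverse with siMEX3A_1, at -1.52 over 23 genes with it and -2.03 over 10 without. With siMEX3A_2 both CCAAT medians were -0.26. For GGCGGGA the medians with siMEX3A_1 were -1.70 over 12 genes with it and -1.87 over 21 without. With siMEX3A_2 they were -0.47 and -0.17, beside -0.07 and 0.01 over tested genes. The lower medians with siMEX3A_2 were thus not particular to TTTGAA. Among the printed promoters, those of CDCA8, CDC20, HJURP, ZWINT and INCENP each have TTTGAA with 2 or 3 CCAAT matches. With siMEX3A_2 CDC20 and CDCA8 fell (log2 -1.13 and -0.60), HJURP rose (0.19), and ZWINT and INCENP did not pass (-0.0068 and 0.16).

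Kinetochore and checkpoint genes outside the 40 were less uniform. Of 21 such genes, 13 fell and 5 rose with siMEX3A_1 (median -0.83), and 11 fell and 5 rose with siMEX3A_2 (median -0.31). Over all genes 25.9% were lower and 27.0% higher with siMEX3A_1, and 25.7% and 25.2% with siMEX3A_2. The 5 that rose with each siRNA are near these shares. ZW10 and CENPT, described above, were among the rises with each. KNL1, the scaffold on which BUB proteins assemble, had 749 and 648 normalized counts in NC, 141 and 155 with siMEX3A_1 and 374 and 383 with siMEX3A_2. SPDL1, a dynein adaptor at kinetochores, fell by 3.03 and 0.78, and TRIP13, the ATPase that takes MAD2 complexes apart, by 2.00 and 0.80. The shugoshins SGO1 and SGO2, which protect centromeric cohesion, fell by 2.30 and 1.95 with siMEX3A_1 and by 1.46 and 0.35 with siMEX3A_2. In the direct comparison 11 of the 21 were lower and 5 higher with siMEX3A_1 (median -0.69). The shares over all genes there were 25.5% lower and 26.0% higher, so the 5 higher are near that share.

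A list of 18 genes covered the anaphase-promoting complex, the ubiquitin ligase that CDC20 activates, with its ubiquitin-conjugating enzymes and regulators. Of these 18, 10 fell with siMEX3A_1 and 10 with siMEX3A_2, with 3 and 0 higher and medians of -0.26 and -0.24. The shares over all genes were 25.9% lower and 27.0% higher with siMEX3A_1, and 25.7% and 25.2% with siMEX3A_2. UBE2C, UBE2S and FBXO5, which are not subunits of the complex, were among the falls with each siRNA. Subunits were among the falls too, such as ANAPC5, with log2 fold changes of -1.01 and -0.63 (edgeR adjusted p = 4.38e-07 and 1.28e-05). UBE2C and UBE2S, the genes of the ubiquitin-conjugating enzymes, fell by 2.10 and 1.36 with siMEX3A_1 and by 0.36 and 1.09 with siMEX3A_2. ANAPC15, a subunit that helps to release CDC20 from the checkpoint, differed directly by 0.79 (edgeR adjusted p = 3.48e-05), with 0.36 against -0.44. Among 15 genes of cohesin and its removal, 10 fell and 2 rose with siMEX3A_1 (median -0.38), and 5 fell and 2 rose with siMEX3A_2 (median -0.09), where the 5 of 15 are near the 25.7% of all genes called lower. The lowest p-values with siMEX3A_1 belonged to the acetyltransferase gene ESCO2 (-3.83), sororin (CDCA5, -2.40), separase (ESPL1, -1.85) and securin (PTTG1, -1.49).

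**Figure D5:**
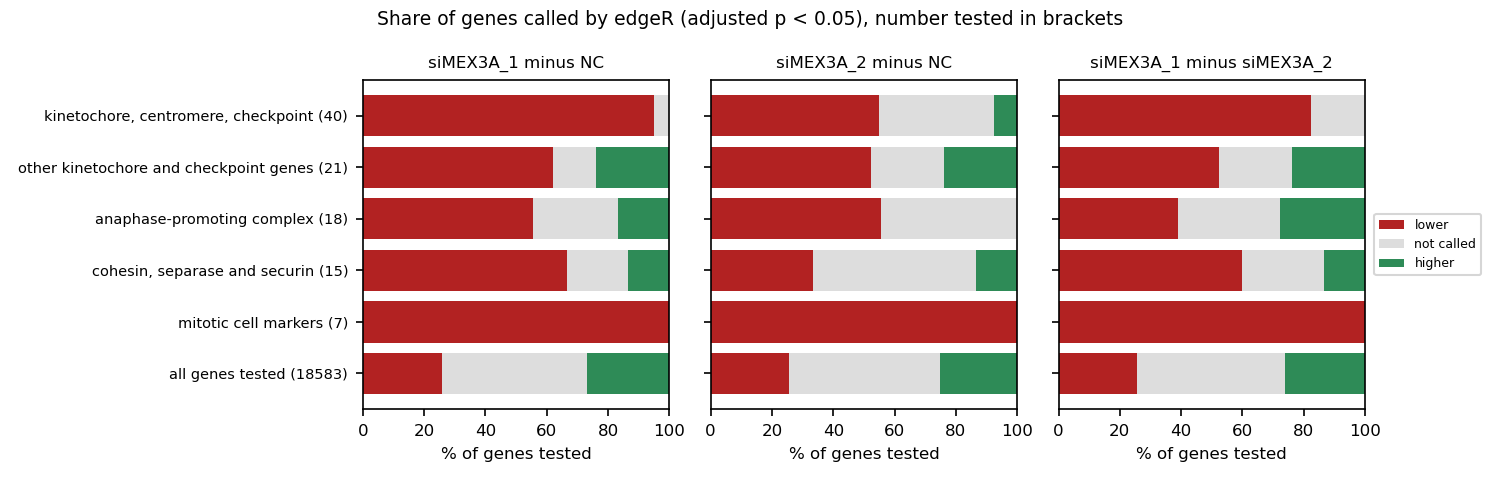
Share of tested genes called lower (red), not called (grey) and called higher (green) by edgeR at an adjusted p under 0.05 (x axes, percent), for the 40 genes, 4 further lists and all 18583 tested genes (y axis), in each of 3 comparisons. With siMEX3A_1 38 of the 40 genes are lower, beside 25.9% of all genes; with siMEX3A_2 22 of the 40 are lower, beside 25.7%.

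General markers of dividing cells fell with both siRNAs. With siMEX3A_2 they fell more uniformly than the 40 genes, of which 22 fell, 3 rose and 15 did not pass (median -0.27). All 7 such markers fell with each siRNA (medians -2.19 and -0.64), beside 25.9% and 25.7% of all genes called lower. The summed level of the 7 was 19.8% and 20.2% of the NC mean with siMEX3A_1 and 61.8% and 60.9% with siMEX3A_2. MKI67 had 8970 and 7748 normalized counts in NC, 1118 and 1213 with siMEX3A_1 and 5408 and 5166 with siMEX3A_2, and CDK1, TOP2A and AURKA fell (log2 -3.06, -2.35 and -2.03) with siMEX3A_1. In bulk RNA, fewer cells in G2 and M phase and less RNA per cell cannot be told apart, and the part of the cell cycle distribution in the results above was not tested. Of the 40 genes, 12 share exon sequence with another tested gene in GENCODE v29. Besides those named above they include CENPA with SLC35F6, CENPU with PRIMPOL, CENPO with ADCY3 and PTRHD1, MIS12 with DERL2, NUF2 with RGS5 and OIP5 with OIP5-AS1.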

How the data were processed

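RNA from 6 libraries of ACHN cells was sequenced. Per the submitters' processing notes, the tools included STAR and RSEM and the builds listed are GRCh37 and hg19. Neither versions nor roles are given there. The count columns hold expected counts per gene that the authors deposited without normalization, per the file headers and the values. The authors' own log2 fold changes and adjusted p-values (in DESeq2-style columns, per the file headers) served for 1 set of counts.

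Expected counts were rounded and tested with edgeR 4.0.16 (R 4.3.3; quasi-likelihood, TMM, default low-count filter, 1 estimate of spread over 6 libraries, Benjamini-Hochberg over 18583 genes). DESeq2 1.42.0 was an alternative, and the remaining ones were other scalings and filters, fits of 2 groups, the replicate block and leaving out each library. SEs are the absolute log2 fold change over the square root of F. Of 60409 rows, 4481 shared a name. Libraries of a group differed by more than sampling noise (chi-square over its degrees of freedom 2.39 to 5.62). The p-values speak to spread among these libraries alone, which may be technical.

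The members and lists were chosen with earlier results of these data known. The text names all 40 members and, from each further list, up to 4 genes by lowest p in each comparison. CENPT and PRR11 were added after their values were seen. PECAM1 was not analysed here, and some overlapping genes are not reported here.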

Additional observations from a re-analysis of the deposited data

Results flagged for a closer look

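HJURP, CENPF and SKA2 were called in opposite directions with the siRNAs against the same NC libraries, and the direct test between the siRNAs was called for each. Their log2 differences, siMEX3A_1 minus siMEX3A_2, were -2.42 for HJURP, -1.66 for CENPF and -1.75 for SKA2. Of the 3 rises with siMEX3A_2, that of SKA2 passed in all 13 alternatives.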

How the results depend on the processing

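All 38 lower calls with siMEX3A_1 passed in each of 13 alternatives, as did 14 of the 22 lower calls and 1 of the 3 higher calls with siMEX3A_2 and 32 of the 33 in the direct comparison. Leaving out single libraries, members called lower with siMEX3A_2 numbered 15 to 22 and members called higher 1 to 3. The members' median log2 fold change was -1.54 with siMEX3A_1 and -0.29 with siMEX3A_2 when only library size was scaled, and without single libraries it ran from -1.56 to -1.44 and from -0.278 to -0.22. Some values that did not pass changed sign. CENPP with siMEX3A_1 stood at -0.0432 with library size only, at -0.0088 with a minimum mean of 50 counts and from -0.3369 to 0.3147 without single libraries. Over the fits without single libraries, CENPL ran from -0.2854 to 0.0042 with siMEX3A_1. With siMEX3A_2 CENPL ran from -0.0694 to 0.2181, CENPP from -0.0088 to 0.1923, ZWINT from -0.0287 to 0.0219, BUB3 from -0.0037 to 0.0097 and AURKB from -0.1769 to 0.0472. In the direct comparison CENPP ran from -0.425 to 0.2267, CENPW from -0.4439 to 0.0832 and PMF1-BGLAP from -0.8175 to 0.2311. The causes were not tested. Same-numbered libraries did not deviate together (residual correlations from -0.11 to 0.03). With the replicate block 38, 20 and 32 members were lower in the 3 comparisons, and HJURP (edgeR adjusted p = 0.0541), CENPO (0.0649) and BUB1B (0.0614) with siMEX3A_2 and OIP5 in the direct comparison (0.0504) did not pass. With the siMEX3A_1 numbers crossed, a pairing chosen after seeing the data, 38 were lower with siMEX3A_1 and 0 higher.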
